A study of Mus musculus with 7 samples.

Results

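The genes described here encode the constitutive proteasome, its activators and inhibitor, and the factors that assemble it. They were taken by name: of 53656 gene rows, 54 had a symbol of the Psma to Psmg series. The 3 inducible subunits Psmb8, Psmb9 and Psmb10 and 4 pseudogene symbols were set aside, and 47 remained. Of these, 45 had at least 10 counts in at least 3 libraries and are the members. The other 2 were Psmb11, the thymus-specific subunit, with 0 counts in every library, and Psma8, a testis-specific alpha subunit, whose highest count was 25 and which reached 10 counts in 2 libraries. Psmb11 thus lay below 0.0607 to 0.0788 CPM (counts relative to the library's total), the level of 3 counts in these libraries. That floor allows for counting error alone. The lowest members inside the threshold, Psme2b and Psmg4, had at least 314 and 270 counts in each library. All 45 were among the 15896 genes tested. The name pattern also takes in Psmc3ip, which encodes a factor of homologous recombination and no part of the proteasome, and it is described apart.

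The proteasome is the protease that degrades proteins marked with ubiquitin. Its barrel-shaped core has outer rings of alpha subunits (Psma genes) and inner rings of beta subunits (Psmb genes), of which Psmb5, Psmb6 and Psmb7 carry the catalytic sites. A regulatory particle caps the core: its base holds ATPases (Psmc genes) that unfold substrates, and its lid (most Psmd genes) removes ubiquitin. In T cells and in cells exposed to interferon, Psmb8, Psmb9 and Psmb10 can take the places of Psmb5, Psmb6 and Psmb7, which changes the peptides made for MHC class I presentation.

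The libraries measured messenger RNA of OT1 cells, CD8 T cells whose transgenic receptor recognises ovalbumin. Sorting on CD8 and CD45.1 took them from tumours grown from B16-OVA-GP61, a mouse melanoma line carrying ovalbumin and the GP61 epitope. In 4 libraries no SMARTA cells were present, and in 3 libraries they were. SMARTA cells are CD4 T cells whose transgenic receptor recognises GP61, and the study asks what CD4 T cells do to tumour-specific CD8 T cells. All groups share the tumour line, the OT1 receptor and the sort. The labels used here give no strain, age, time or dose, and do not say whether libraries came from single or pooled animals. The spread behind each p-value is thus that between these libraries, and it may be technical.

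Libraries held 38092722 to 49438357 counts. The 8 CD8 T cell markers summed to 9187 to 12347 CPM in every library. Replicate 1 with SMARTA stood apart: its erythroid markers summed to 4829 CPM, against 9.7 to 223 CPM in the other 6 libraries, with no erythroid marker of the 7 tested called between the groups. Replicate 2 without SMARTA had the highest mitochondrial share, 1.28% of counts, against 0.18% to 0.54% in the others. Its 7 melanoma markers also summed highest, to 68.4 CPM against 6.7 to 16.9 CPM in the others, and none of the 4 tested was called. Neutrophil markers summed to 57.6 and 26.1 CPM in replicates 1 and 2 without SMARTA and to 0.9 to 3.7 CPM in the other 5 libraries. In 2 marker lists the groups did not overlap. The CD4 list summed to 39.7 to 96.2 CPM without and 120.5 to 140.3 CPM with SMARTA, mostly Cd40lg, and Cd4 itself was at 0.66 to 8.09 CPM. The endothelial list summed to 85.3 to 117.3 and 137.3 to 186.5 CPM, mostly Pecam1, and Cdh5 was at 0 to 1.46 CPM. None of the 4 CD4 and 3 endothelial markers tested was called. Their part in the results below was not tested.

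Transcripts of the core, base and lid were lower in OT1 cells from tumours with SMARTA cells in nearly every subunit, by a modest amount, and no subunit passed the test. The 45 members took up 1.23%, 0.959%, 1.01% and 1.055% of all counts in replicates 1 to 4 without SMARTA and 0.807%, 0.713% and 0.723% in replicates 1 to 3 with SMARTA. The share was lower in each library with SMARTA than in each without. It is a share of raw totals, and the TMM scaling factors also separated the groups (1.014 to 1.113 without, 0.893 to 0.973 with SMARTA). With TMM scaling the members summed to 8620 CPM in replicate 2 without and 8454 CPM in replicate 1 with SMARTA. The members' median log2 deviation from their mean without SMARTA was −0.24 in both of these libraries. In bulk samples, fewer cells of a type and less RNA per cell cannot be told apart. Of the 31 subunits of core, base and lid in the name series, 30 had a log2 fold change (with minus without SMARTA) below 0. The exception was the ubiquitin receptor Psmd4. Adrm1 and Sem1, subunits with names outside the series, are given with the partners below. The median of the 31 was −0.47 and the range −0.82 to 0.20. Over all genes tested 50.2% lay below 0, with a median of 0.00.

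Of the 45 members, 1 was called lower and none higher (quasi-likelihood test of edgeR, with p adjusted by Benjamini-Hochberg over all genes tested and a threshold of 0.05), and the one called was Psmc3ip. Of all genes tested 3.15% were called, 1.52% higher and 1.63% lower. At an unadjusted p under 0.05, 15 of the 31 subunits were lower and none higher, against 9.37% lower of all genes tested. That count was 6 without replicate 2 with SMARTA, 8 without replicate 4 lacking SMARTA and 4 with GC and length trends removed. It was 24 with library totals and 25 with quality weights, and 18 without both libraries that stand apart. The share of all genes at this unadjusted threshold was not counted in these fits. In the same order, 37, 17, 1059, 561, 1537 and 1257 of all genes were called, against 500 in the fit above. The libraries of the groups did not overlap in 15 of the 31, all lower with SMARTA, against 10.5% of all genes tested. Of all genes, 8.73% were higher with no overlap. The subunits were measured in the same libraries and moved together. The core median was 0.35 log2 units from the mean without SMARTA in replicate 1 without and −0.27 in replicate 2 without. These counts, and that of subunits below 0, are thus not counts of independent genes. The smallest adjusted p of a subunit was 0.0921, that of Psmb7. The 95% interval of a subunit's log2 fold change reached 0.48 to either side in the median, so a difference of the median's size was near the limit of what these libraries resolve.

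Under all other settings tried the median of the 31 subunits stayed below 0. It was −0.27 in place of −0.47 when trends with GC content and transcript length were removed from each library, with 29 of 31 below 0, an alternative chosen after the data were seen. There the median of all genes was 0.09, so that the subunits lay at −0.36 relative to it. The median of all 45 members was −0.38 before and −0.23 with these trends removed. Scaled by library totals and not by TMM, the median of the 31 subunits was −0.62, while the median of all genes moved to −0.16. The number of subunits called was 0 in each fit that left out 1 library, 3 when both libraries that stand apart were left out (Psmb5, Psmb6 and Psmd6), and 6 by limma-voom with sample quality weights (Psmb4, Psmb5, Psmb6, Psmb7, Psmc5 and Psmd6). More genes were called in general there: 1257 of all genes without both libraries and 1537 with quality weights, against 500 in the fit described first.

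**Figure D1:**
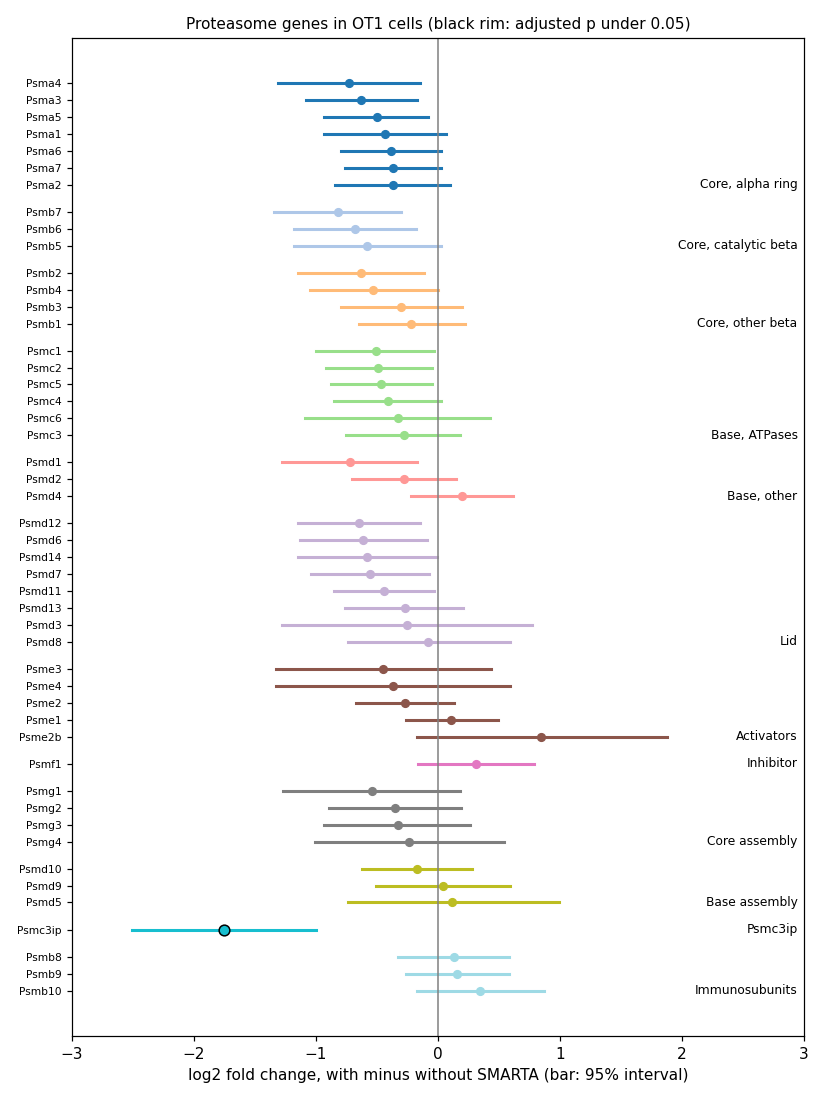
The x axis gives the log2 fold change of each gene, with minus without SMARTA, and bars give its 95% interval. Genes are grouped by role. Core, base and lid genes lie left of 0 except Psmd4, and Psmc3ip at −1.75 is the only gene called.

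The libraries did not contribute alike. Replicate 1 without SMARTA was highest of the 7 in 28 of the 45 members, and replicate 2 with SMARTA was lowest in 21. How often each library was highest or lowest over all genes tested was not counted. Relative to each gene's mean without SMARTA, the median deviation of the 14 core genes was 0.35, −0.27, −0.05 and −0.02 log2 units in replicates 1 to 4 without SMARTA. It was −0.41, −0.58 and −0.42 in replicates 1 to 3 with SMARTA. Every library with SMARTA thus lay below every library without, and replicate 2 without SMARTA was the nearest to them. The 9 base genes followed the same order, at 0.21, −0.24, −0.01 and 0.01 without and −0.27, −0.59 and −0.27 with SMARTA. The 8 lid genes were at 0.10, −0.20, 0.01 and 0.13 without and −0.30, −0.44 and −0.60 with SMARTA. The 6 activator and inhibitor genes did not separate the groups, at −0.18 to 0.11 without and −0.09, −0.13 and 0.21 with SMARTA. The spread between libraries of a group was smaller for the members than for genes in general. The median SD of log2 CPM was 0.25 without and 0.30 with SMARTA for the 45 members, against 0.43 and 0.54 over all genes tested. The members were not compared with genes of the same level, so the smaller spread is not shown to be particular to them.

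**Figure D2:**
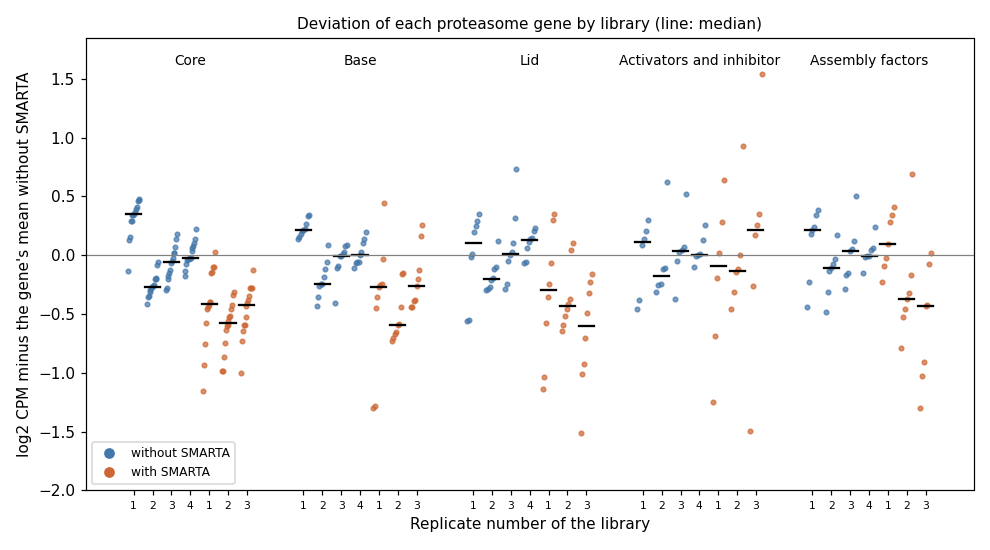
Each point is a gene in a library, the y axis its log2 CPM minus its own mean without SMARTA, and the x axis the replicate number within each role. Lines are medians. Core medians lie at −0.41, −0.58 and −0.42 with SMARTA, and activators spread on both sides of 0.

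Which members were lowest differed between the libraries with SMARTA, along with GC content. The 13 members lowest in replicate 1 with SMARTA, among them Psma4, Psmb7, Psmc6, Psmd1 and Psmd14, had transcripts with a median GC content of 43.2%. The 21 lowest in replicate 2 with SMARTA had a median of 51.0%, and the 9 lowest in replicate 3 with SMARTA, among them Psmd3, Psmd8 and Psme3, had 51.5%. With the GC and length trends removed, 37 of the 45 members were below 0, against 39 before.

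Upstream sequence was read for the members because core, base and lid genes were low together. RefSeq promoters (GRCm38.p6) were matched by symbol for 38 of the 45 members, and the 250 bases before the first listed start were searched on both strands. The stretches printed are those of 5 members: catalytic beta subunits, an alpha subunit, a base ATPase and a lid subunit. They are cut where the first exon in the annotation of the count files begins. Capitals mark every match to a motif searched: TGACNNNGC (the antioxidant response element, to which the proteasome regulator Nfe2l1 binds), CCAAT (the box bound by factor NF-Y), CCGGAAG (ETS factors), GCGCNTGCG (nuclear respiratory factor), GAAANNGAA (interferon response element), CACGTG (E-box) and GGGCGG (GC box).
Psmb5 (chr14:54618023-54618245, minus strand): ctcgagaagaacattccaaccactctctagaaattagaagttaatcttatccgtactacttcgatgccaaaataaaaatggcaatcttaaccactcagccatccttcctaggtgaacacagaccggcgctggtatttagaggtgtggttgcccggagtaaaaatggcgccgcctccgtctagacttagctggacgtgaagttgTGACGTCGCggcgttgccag
Psmb6 (chr11:70525107-70525356, plus strand): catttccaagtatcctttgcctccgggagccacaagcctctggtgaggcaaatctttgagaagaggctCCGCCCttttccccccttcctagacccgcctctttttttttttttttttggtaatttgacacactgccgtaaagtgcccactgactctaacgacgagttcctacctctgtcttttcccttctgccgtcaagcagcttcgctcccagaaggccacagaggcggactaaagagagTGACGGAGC
Psma3 (chr12:70974373-70974620, plus strand): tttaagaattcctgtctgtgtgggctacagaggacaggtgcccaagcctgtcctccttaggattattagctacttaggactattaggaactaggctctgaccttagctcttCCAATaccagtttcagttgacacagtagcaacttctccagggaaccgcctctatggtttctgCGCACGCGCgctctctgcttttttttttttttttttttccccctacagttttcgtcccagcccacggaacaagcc
Psmc2 (chr5:21785025-21785274, plus strand): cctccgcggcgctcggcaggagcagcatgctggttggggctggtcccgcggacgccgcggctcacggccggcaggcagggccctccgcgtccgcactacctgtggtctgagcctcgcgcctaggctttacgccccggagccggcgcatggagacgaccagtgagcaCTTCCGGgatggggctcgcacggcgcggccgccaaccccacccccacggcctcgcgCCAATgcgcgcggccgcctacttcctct
Psmd11 (chr11:80428365-80428614, plus strand): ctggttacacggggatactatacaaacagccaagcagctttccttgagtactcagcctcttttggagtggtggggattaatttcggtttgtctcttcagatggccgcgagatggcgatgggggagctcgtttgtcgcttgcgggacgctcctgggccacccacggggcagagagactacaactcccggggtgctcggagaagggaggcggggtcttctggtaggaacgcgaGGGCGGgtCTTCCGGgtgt

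Each of the 5 stretches held 1 or 2 matches. The antioxidant response letters began 47 bases before the start of Psmb5 and 9 bases before that of Psmb6, which also had a GC box. Psma3 had CCAAT and the nuclear respiratory factor letters, Psmc2 had CCAAT and the ETS letters, and Psmd11 had the ETS letters beside a GC box. Over the 38 members with a promoter, the antioxidant response letters were in 5 (13.2%), against 12.2% of the 9276 promoters of genes tested and 10.1% of all 27025 promoters. The ETS letters were in 12 (31.6%), against 14.2% and 7.05%. CCAAT was in 13 (34.2%), against 36.7% and 34.5%. The nuclear respiratory factor letters were in 6 (15.8%), against 11.6% and 5.40%, and the GC box in 21 (55.3%), against 58.5% and 32.9%. The interferon response letters were in 3 (7.89%), against 6.60% and 7.16%, and the E-box in 3 (7.89%), against 8.31% and 6.05%. Matches of different motifs overlapped for 1 of the antioxidant, 1 of the ETS and 2 of the GC box matches. Among the 25 promoters of core, base and lid genes, 16% held the antioxidant response letters, 40% CCAAT and 32% the ETS letters. There the nuclear respiratory factor letters were in 24%, the GC box in 56%, the interferon response letters in 8% and the E-box in 4%. Differences from the other promoters were not tested. All matches are letters in a window and not shown to be bound.

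The 3 catalytic beta subunits had log2 fold changes of −0.82 to −0.58, and Psmb7 had the lowest value of the 14 core genes. Psmb7, whose site cuts after basic residues, lies on chromosome 2 from 38588036 to 38644087 (GRCm38). It was at 183, 110.5, 118 and 131 CPM in replicates 1 to 4 without SMARTA and at 69.6, 72.8 and 88.1 CPM in replicates 1 to 3 with SMARTA. The groups did not overlap, and the log2 fold change was −0.82 ± 0.23 (SE; edgeR adjusted p = 0.0921). Psmb7 passed with library totals, with a filter of 5 CPM in 3 libraries, with DESeq2 and with quality weights (adjusted p = 0.0261 to 0.0474), and in none of the 7 fits that left out 1 library (0.0977 to 0.255). Of its exon bases 11.8% are shared with Nek6, where reads were not counted for either gene.

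Psmb6, whose site cuts after acidic residues, was at 408, 260.5, 325 and 304 CPM without SMARTA. With SMARTA it was at 243, 162 and 204 CPM. All 3 libraries with SMARTA were below the 4 others (log2 fold change −0.68 ± 0.22, SE; edgeR adjusted p = 0.141). Psmb5, whose site cuts after hydrophobic residues and is the main target of proteasome inhibitors used as drugs, was at 191, 123, 177 and 142 CPM without SMARTA. It was at 145, 78.8 and 94.3 CPM with SMARTA. Here replicate 1 with SMARTA lay inside the range of the other group, and the log2 fold change was −0.58 ± 0.26 (edgeR adjusted p = 0.292). Leaving out 1 library moved the value of Psmb5 between −0.89 and −0.40. Without both libraries that stand apart it was −0.97 and passed (edgeR adjusted p = 0.041).

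The other beta subunits build the ring without a catalytic site. Psmb2 was at 434, 234, 307 and 305.5 CPM without and 227.5, 187 and 207 CPM with SMARTA, with no overlap (log2 fold change −0.63 ± 0.23, SE; edgeR adjusted p = 0.184). Psmb4 was at 185, 192, 224 and 215 CPM without and at 189.7, 134 and 102 CPM with SMARTA, so that replicate 1 with SMARTA overlapped the other group (−0.53 ± 0.23; edgeR adjusted p = 0.27). Psmb1, the beta gene with the highest level per exon length, was at 516, 332, 384.5 and 393 CPM without and 363, 317 and 368 CPM with SMARTA, and its groups overlapped (−0.22 ± 0.19; edgeR adjusted p = 0.611). Psmb3 had a log2 fold change of −0.30.

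All 7 alpha subunits, which form the gated entrance of the core, had log2 fold changes below 0, from −0.73 to −0.37, and the groups did not overlap in 4 of them. Psma4 was at 331, 200.5, 216 and 267 CPM without SMARTA and at 111, 159.7 and 187 CPM with SMARTA, lowest in replicate 1 with SMARTA (log2 fold change −0.73 ± 0.25, SE; edgeR adjusted p = 0.166). Psma3 was at 224, 145, 161 and 184 CPM without and 104.5, 119 and 123 CPM with SMARTA (−0.63 ± 0.20; edgeR adjusted p = 0.135). The libraries of the groups did not overlap for either gene. Psma6, the alpha gene with the highest level per exon length, was at 258, 228, 192.5 and 276 CPM without and at 179, 176.5 and 195 CPM with SMARTA, where replicate 3 with SMARTA just exceeded replicate 3 without (−0.38 ± 0.18; edgeR adjusted p = 0.312). Psma5 at −0.50, Psma1 at −0.43, Psma7 at −0.37 and Psma2 at −0.37 completed the ring.

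In the base, the 6 ATPases had log2 fold changes of −0.51 to −0.28, all below 0. Psmc1 was at 350.5, 205, 295 and 278 CPM without and 216, 174 and 204 CPM with SMARTA, overlapping through replicate 2 without SMARTA (−0.51 ± 0.21, SE; edgeR adjusted p = 0.242). Psmc2 was at 382, 253, 284 and 308 CPM without and 222, 202 and 233 CPM with SMARTA (−0.49 ± 0.19; edgeR adjusted p = 0.214). Psmc5, the ATPase with the highest level per exon length, was at 315, 256, 277 and 267 CPM without and 233.5, 167 and 205 CPM with SMARTA (−0.47 ± 0.18; edgeR adjusted p = 0.213). Psmc2 and Psmc5 did not overlap between the groups, and Psmc4 at −0.41 did not either. Psmc6 was at 61.3 CPM in replicate 1 with SMARTA and at 114 to 175 CPM in the other 6 libraries (−0.33). Without both libraries that stand apart it was at 0.02.

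The base also holds large scaffold proteins and a ubiquitin receptor. Psmd1 was at 315, 239, 264 and 326 CPM without SMARTA and at 117, 188 and 216 CPM with SMARTA, with no overlap (log2 fold change −0.72 ± 0.24, SE; edgeR adjusted p = 0.158). Psmd2, the base gene with the most counts, was at 766, 520, 669 and 730 CPM without and 562, 489 and 609 CPM with SMARTA, and its groups overlapped (−0.28 ± 0.19; edgeR adjusted p = 0.489). Psmd4, which recognises ubiquitin chains, was at 372, 325, 336 and 322.5 CPM without and at 460, 305 and 403 CPM with SMARTA (0.20, edgeR adjusted p = 0.629). It was the only subunit of the 31 above 0, and its interval, −0.22 to 0.62, covers 0.

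All 8 lid genes were below 0, with log2 fold changes of −0.65 to −0.08, and 4 had no overlap between the groups. Psmd12, a lid scaffold, was at 250.5, 197, 172 and 232 CPM without SMARTA and at 103, 154 and 149.5 CPM with SMARTA (−0.65 ± 0.22, SE; edgeR adjusted p = 0.155). Psmd6 was at 143, 118, 145 and 167 CPM without and 120.4, 90.9 and 70.6 CPM with SMARTA, with replicate 1 with SMARTA just above replicate 2 without (−0.61 ± 0.23; edgeR adjusted p = 0.20). Psmd14, the deubiquitinase of the lid, was at 336, 239.9, 231 and 303 CPM without and at 125, 212 and 219.5 CPM with SMARTA, with no overlap (−0.58 ± 0.25; edgeR adjusted p = 0.257). Its inactive partner Psmd7 had −0.56 and no overlap, and Psmd11 −0.44 and no overlap. Psmd13, highest of the lid per exon length, was at 389.8, 251, 306 and 294 CPM without and 293, 203 and 274 CPM with SMARTA, which overlapped (−0.27 ± 0.21; edgeR adjusted p = 0.563). Psmd3 and Psmd8 had −0.25 and −0.08. In both, replicate 3 with SMARTA was lowest of all libraries, at 23.8 CPM for Psmd3 and 134 CPM for Psmd8, and replicate 1 without SMARTA was next, at 46.5 and 149 CPM. Without that library with SMARTA their log2 fold changes were 0.10 and 0.14.

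The activators, alternative caps of the core that do not bind ubiquitin, had log2 fold changes on both sides of 0. None of the 5 was called, and the groups overlapped in each. Psme1 and Psme2 form the interferon-inducible activator ring. Psme1 was at 502, 435, 482 and 476 CPM without and 577, 428 and 532 CPM with SMARTA (log2 fold change 0.11 ± 0.17, SE; edgeR adjusted p = 0.782). Psme2 was at 593, 403, 463.5 and 481 CPM without and 419.8, 388 and 401 CPM with SMARTA (−0.27 ± 0.18; edgeR adjusted p = 0.483). The intervals of the log2 fold change were −0.26 to 0.49 for Psme1 and −0.67 to 0.13 for Psme2. Psme1 was at −0.04 with library totals and Psme2 at −0.05 with GC and length trends removed.

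Psme3, which encodes the nuclear activator, was at 101, 111, 198 and 164.5 CPM without SMARTA and at 139.6, 127 and 49 CPM with SMARTA, lowest in replicate 3 with SMARTA (−0.45 ± 0.39, SE; edgeR adjusted p = 0.607). Psme4, a large activator linked to histone degradation, was low in all libraries, at 17.2, 34.4, 17.2 and 24.4 CPM without and 9.39, 16.2 and 28.5 CPM with SMARTA (−0.37 ± 0.42; edgeR adjusted p = 0.713). Psme2b, a near copy of Psme2 whose reads cannot be told apart where the copies match, was at 11.9, 9.98, 11.3 and 10.0 CPM without. With SMARTA it was at 6.66, 20.6 and 31.4 CPM, below the other group in replicate 1 and above it in replicates 2 and 3 (0.85 ± 0.45; edgeR adjusted p = 0.364). It passed without replicate 1 with SMARTA (1.24; edgeR adjusted p = 0.035). Without replicate 3 with SMARTA the log2 fold change of Psme2b was 0.33 (edgeR adjusted p = 0.785). Psmf1, an inhibitor of the core in the test tube, was at 116.5, 85.3, 103.7 and 100.1 CPM without and 157, 100.7 and 120.3 CPM with SMARTA, and its groups overlapped (0.31 ± 0.21; edgeR adjusted p = 0.489).

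Of the 7 assembly factors none was called, and the groups overlapped in each. The Psmg genes encode chaperones that put together the alpha ring, and all 4 were below 0, at −0.54 to −0.24. Psmg1 was at 49.7, 39.8, 35.9 and 51.8 CPM without and 43.1, 30.4 and 17.8 CPM with SMARTA (log2 fold change −0.54 ± 0.32, SE; edgeR adjusted p = 0.423). Psmg2 was at 102, 55.8, 80.2 and 81.4 CPM without and 73.0, 56.9 and 58.0 CPM with SMARTA (−0.35 ± 0.24; edgeR adjusted p = 0.50). Of the chaperones of the base, Psmd10 had −0.17, Psmd9 0.04 and Psmd5 0.12. Psmd10, also known as gankyrin, was at 87.9, 68.0, 62.4 and 62.4 CPM without and 59.1, 62.0 and 65.9 CPM with SMARTA (SE 0.20; edgeR adjusted p = 0.719). Psmd5 was at 31.7, 39.9, 61.1 and 44.5 CPM without and 52.3, 69.6 and 23.0 CPM with SMARTA (SE 0.38; edgeR adjusted p = 0.905), on both sides of the other group. The sign of Psmd5 changed with library totals (−0.01), as did that of Psmd9 (−0.11), and that of Psmd10 with GC and length trends removed (0.14). Of the exon bases of Psmd9, 25.5% are shared with Gm26745.

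Psmc3ip, on chromosome 11 from 101091823 to 101095436, fell with SMARTA. It was at 34.3, 15.3, 21.4 and 19.3 CPM in replicates 1 to 4 without and at 6.74, 6.31 and 7.06 CPM with SMARTA. The libraries did not overlap, and the log2 fold change was −1.75 ± 0.33 (SE; edgeR adjusted p = 0.0363), a 3.37-fold lower level. The call held without replicate 2 lacking SMARTA and without replicate 1 with SMARTA. It was lost with any of the 5 other libraries left out (adjusted p = 0.0701 to 0.128), though the log2 fold change stayed within −1.90 to −1.51 over the 7 fits. Of its exon bases 21.2% are shared with Mlx.

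Levels per exon length were compared as RPKM (CPM divided by the kilobases of merged exon), averaged over the 7 libraries. Although core subunits are built into the particle in equal numbers, their RPKM spanned 11.4-fold, from 32.2 for Psmb7 to 369 for Psmb1. Among the alpha genes the RPKM ran from 38.9 for Psma3 to 174 for Psma6. Lid genes were at 13.4 (Psmd3) to 85.0 (Psmd13), ATPases at 40.0 (Psmc6) to 176 (Psmc5). Psme2 at 255 was the highest activator and Psme4 at 2.51 the lowest member of all. Assembly factors were lower, with a median of 28.0 for the Psmg genes and 8.49 for the base chaperones. The lengths are of all annotated exons merged, which lowers the RPKM of genes with long alternative exons, and reads that match pseudogenes as well were not counted.

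**Figure D3:**
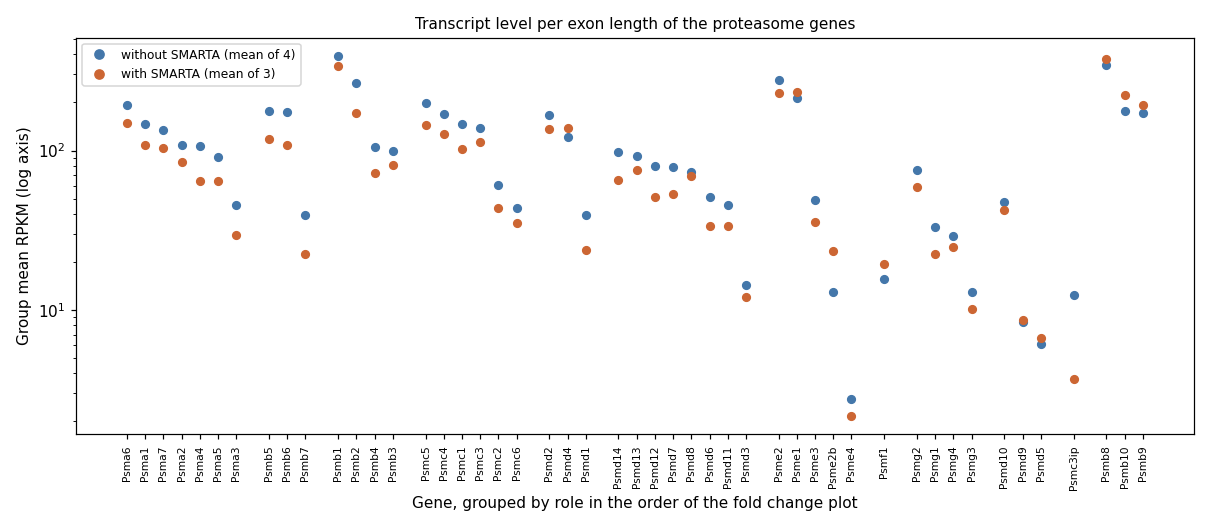
Points are group means of RPKM on a log axis, for each gene by role, blue without SMARTA and orange with SMARTA. Core genes range from 22.5 and 39.6 for Psmb7 to 337 and 392.5 for Psmb1, with the mean with SMARTA named before the mean without.

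The inducible counterparts of the catalytic subunits had log2 fold changes above 0. Psmb8, which takes the place of Psmb5, was at 840.5, 850.4, 1098 and 956 CPM without SMARTA and at 1247, 1029 and 789 CPM with SMARTA (log2 fold change 0.13 ± 0.20, SE; edgeR adjusted p = 0.80). Psmb9, the counterpart of Psmb6, was at 663, 524, 709 and 629 CPM without and 593.5, 693 and 830.2 CPM with SMARTA (0.16 ± 0.18; edgeR adjusted p = 0.715). Psmb10, the counterpart of Psmb7, was at 370.5, 243, 311 and 276 CPM without and 498, 311 and 339.5 CPM with SMARTA (0.35 ± 0.23; edgeR adjusted p = 0.473). None was called, and the groups overlapped in all 3. The sign of Psmb8 changed with library totals (−0.02) and without replicate 1 with SMARTA (−0.05).

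The ratio of each inducible subunit to its constitutive counterpart needs no scaling between libraries, and all 3 ratios were higher with SMARTA. Per kilobase of exon, Psmb10 exceeded Psmb7 by 4.07, 4.42, 5.30 and 4.24 times in replicates 1 to 4 without SMARTA and by 14.4, 8.56 and 7.73 times in replicates 1 to 3 with SMARTA. The mean log2 ratio was 2.16 ± 0.17 (SD, n = 4) without and 3.30 ± 0.48 (SD, n = 3) with SMARTA, a difference of 1.13 (exact permutation test over 35 splits, two-sided p = 0.0286, adjusted over the 3 ratios 0.0286). The ratio of Psmb9 to Psmb6 was 0.831, 1.03, 1.12 and 1.06 without and 1.25, 2.19 and 2.08 with SMARTA (difference in mean log2 ratio 0.83, exact permutation p = 0.0286, adjusted 0.0286). That of Psmb8 to Psmb5 was 1.44, 2.28, 2.04 and 2.21 without and 2.82, 4.29 and 2.75 with SMARTA (difference 0.71, exact permutation p = 0.0286, adjusted 0.0286). In each pair every library with SMARTA had a higher ratio than every library without, and 0.0286 is the smallest p that this design allows. The ratios were chosen with earlier results of these data known. They share the same libraries and use the constitutive genes already described as lower there. Their p-values are thus no independent support. Replicate 1 with SMARTA, where erythroid markers were high, had the highest ratio of Psmb10 to Psmb7 and the lowest of Psmb9 to Psmb6 in its group. The GC content was 56.5% for Psmb10 and 40.8% for Psmb7, and 54.1% for Psmb9 and 51.6% for Psmb6. In the remaining pair the order was reversed, with 52.5% for Psmb8 and 56.6% for Psmb5. The part of erythroid RNA or GC content in the ratios of this library was not tested.

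With 1 library left out the 3 differences stayed above 0, at 0.86 to 1.31 for Psmb10 to Psmb7, 0.69 to 1.09 for Psmb9 to Psmb6 and 0.51 to 0.83 for Psmb8 to Psmb5. In those smaller sets of libraries the smallest p possible is above 0.05. With GC and length trends removed the differences were 1.05, 0.63 and 0.71, and that of Psmb8 to Psmb5 no longer passed (exact permutation p = 0.0571). Ratios to a constitutive subunit do not tell which transcript differed. The values above give −0.58 to −0.82 log2 units for the constitutive and 0.13 to 0.35 for the inducible members, and no single gene of the 6 was called. Psmb10 was at 0.10 without replicate 1 with SMARTA and at 0.03 without both libraries that stand apart, and Psmb9 at 0.01 without replicate 3 with SMARTA and at 0.00 with library totals.

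**Figure D4:**
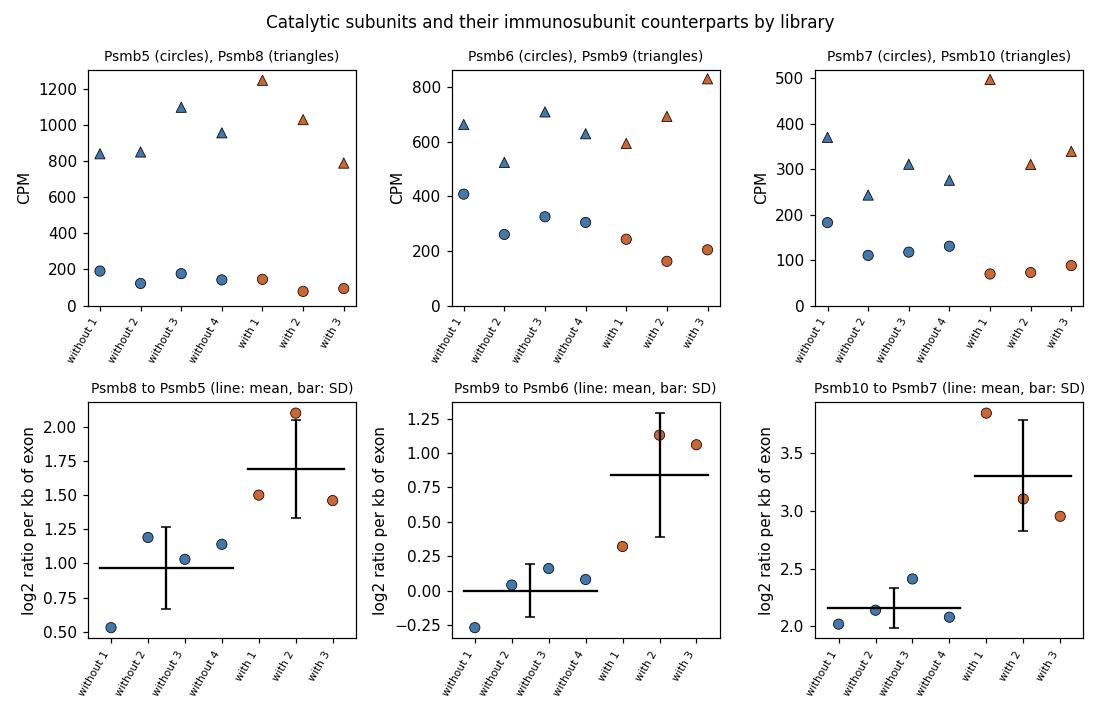
Upper panels give CPM of a constitutive catalytic subunit (circles) and its inducible counterpart (triangles) in the 7 libraries, lower panels their log2 ratio per kilobase of exon, with the group mean and SD. Every library with SMARTA (orange) has a higher ratio than every library without (blue).

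Of 9 subunits and partners of the proteasome outside the name series, none was called, 7 were below 0 and the median log2 fold change was −0.35. Adrm1 and Sem1 are also subunits of the regulatory particle. Adrm1 was at 0.06, above 0 as Psmd4 was, with a 95% interval of −0.87 to 0.99 (edgeR adjusted p = 0.958). Sem1 was at −0.35 (edgeR adjusted p = 0.468). Pomp, the chaperone that matures the core, was at 337, 231, 254 and 243 CPM without and 211, 174 and 192 CPM with SMARTA, with no overlap (−0.47 ± 0.19, SE; edgeR adjusted p = 0.233). Uchl5, a deubiquitinase of the regulatory particle, was at 113, 87.9, 73.3 and 111.5 CPM without and 40.0, 72.4 and 66.9 CPM with SMARTA, also with no overlap (−0.69 ± 0.27; edgeR adjusted p = 0.214). Pomp and Uchl5 were the only 2 of the 9 with no overlap, against 10.5% of all genes tested that were lower with no overlap.

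Of 16 genes that deliver substrates none was called and the median was −0.04. Zfand2a, a stress-induced partner of the proteasome, was at 36.2, 22.8, 29.7 and 36.0 CPM without and 50.0, 40.4 and 61.9 CPM with SMARTA (0.70 ± 0.25, SE; edgeR adjusted p = 0.179). Its relative Zfand2b was at 40.2, 58.9, 62.9 and 54.5 CPM without and 110.2, 72.7 and 67.9 CPM with SMARTA (0.63 ± 0.25; edgeR adjusted p = 0.219). Both were higher in each library with SMARTA than in each without. They were the only 2 of the 16 with no overlap, against 8.73% of all genes tested that were higher with no overlap.

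Of 13 tested genes that control proteasome transcription none was called, with a median of 0.11. Nfe2l2, a factor that binds the antioxidant response element, was at 55.1, 78.4, 53.2 and 61.8 CPM without and 78.0, 144 and 202 CPM with SMARTA (1.18 ± 0.31, SE; edgeR adjusted p = 0.0795). Replicate 1 with SMARTA lay just below replicate 2 without, and without that library Nfe2l2 passed (1.45; edgeR adjusted p = 0.0163). It also passed by DESeq2, by limma-voom with quality weights and with GC and length trends removed (adjusted p = 0.0107 to 0.0415). It passed in no other fit that left out 1 library: without replicate 3 with SMARTA it was at 0.82 (edgeR adjusted p = 0.275), and with library totals at 1.01 (edgeR adjusted p = 0.122). Bach1, a repressor at the same element, was at 5.71, 15.2, 9.59 and 5.93 CPM without and 15.1, 19.0 and 15.0 CPM with SMARTA (0.84 ± 0.38; edgeR adjusted p = 0.288). Nfe2l1, the factor that raises proteasome genes when the proteasome is blocked, was at 48.0, 52.1, 75.4 and 53.0 CPM without and 76.2, 64.7 and 44.6 CPM with SMARTA (0.11 ± 0.26; edgeR adjusted p = 0.866).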

How the data were processed

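RNA of 7 libraries was amplified with the SMART-seq V4 kit and read in pairs, per the labels' protocols. The submitters' processing notes name STAR 2.6.0c, featureCounts 1.6.2 and GRCm38.p6. The deposited values are raw counts of read pairs per gene name over GENCODE M17 exons, per the file headers, without strand and leaving out reads that match several places or genes. The members, lists, tests and alternatives were chosen with earlier results of these data known.

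Samples were grouped by title. With R 4.3.3 and edgeR 4.0.16, genes kept by filterByExpr (minimum count 10, minimum total 15) entered a robust quasi-likelihood fit with TMM factors and no covariates; 500 of 15896 genes were called. CPM are TMM-scaled, marker sums per library total; log2 CPM used a prior count of 2. Standard errors were derived as the fold change over the root of F, and intervals from the 95% t quantile. The ratios were compared by an exact permutation test. The results of 1 further pathway list are not reported here. Genes were named by a fixed rule: called members, in each role those with the highest RPKM and the largest changes, catalytic subunits, activators, and up to 4 called genes of each pathway list or else the 2 with the smallest p. Psmb3, Psma1, Psma2, Psma5, Psma7, Psmc4, Psmc6, Psmd3, Psmd4, Psmd7 to Psmd9, Psmd11, Psmd14, Adrm1, Sem1 and Nfe2l1 are named beyond it, after their values were seen.

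Alternatives were other scalings and filters, DESeq2 1.42.0, limma-voom (limma 3.58.1), no robust estimation, a block for replicate numbers and fits without each library in turn. Added after the data were seen were a fit without both libraries that stand apart and removal of GC and length trends (mgcv 1.9.3, 99.8% of tested genes with a GC value from GENCODE M21). Within each group no pair of libraries agreed within sampling noise (109 to 519 chi-square units per degree of freedom).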

Additional observations from a re-analysis of the deposited data

How the results depend on the processing

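The 1 member called became 2 with library totals, the CPM filter or DESeq2 (in each also Psmb7), 7 with quality weights, 5 without both libraries that stand apart, and 0 at an adjusted p under 0.01; it ranged from 0 to 2 with 1 library left out. Subunits of core, base and lid called numbered 1 with library totals, the CPM filter or DESeq2, 6 with quality weights and 3 without both libraries. Over these settings, of all genes 17 (without replicate 4 lacking SMARTA) to 1769 (DESeq2) were called, and with the replicate block 0. All genes called numbered 561 with library totals, 842 with the CPM filter, 1537 with quality weights and 1257 without both libraries. The median of the members was −0.56 with library totals and −0.54 without both libraries, −0.23 with GC and length trends removed, and −0.50 to −0.38 with 1 left out; that of the 31 subunits was −0.62 with library totals, −0.27 with GC and length trends removed, and −0.54 to −0.41 with 1 left out.

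The transcription control list had 1 call with DESeq2, GC and length trends removed or both libraries left out, 2 with quality weights and 0 to 1 with 1 library left out. Substrate delivery had 2 with quality weights and 1 with trends removed or both libraries left out. The partner list had 1 with trends removed. Of all genes, 1769 were called with DESeq2, 1537 with quality weights, 1257 without both libraries and 1059 with trends removed. The few calls in these lists are thus not read as results about the lists. Without both libraries the ratio differences were 0.88 for Psmb8 to Psmb5, 1.10 for Psmb9 to Psmb6 and 0.85 for Psmb10 to Psmb7, where the smallest possible p is 0.10; with 1 left out they were 0.51 to 0.83, 0.69 to 1.09 and 0.86 to 1.31, and Psmb8 to Psmb5 was 0.71 with trends removed (exact permutation p = 0.0571). Beyond what smaller sets of samples allow, the cause was not tested.

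Pairing by replicate number was not seen: deviations of same-numbered libraries correlated at −0.14, 0.03 and −0.27 over 15896 genes. The labels do not say what the numbers mark, and libraries of unlike number were not compared, so pairing is not excluded. With the replicate block 0 members were called by edgeR and 5 had an unadjusted p under 0.05; the ratio differences within numbers 1 to 3 were 0.77, 0.86 and 1.11 (exact sign permutation p = 0.25, the smallest possible). Of the 45 members 9 changed sign in at least 1 of 19 alternatives, as did Psmb8, and none was called where it did: Psmd10 (0.14 with trends removed), Psmd5 (−0.01 with library totals, −0.23 to 0.45 with 1 library left out, −0.03 without replicate 1 lacking SMARTA, −0.23 without replicate 2 with SMARTA), Psme1 (−0.04 with library totals, −0.03 with quality weights, −0.02 without both libraries), Psme4 (0.19 without both), Psmd9 (−0.27 to −0.05 in 6 alternatives), Psmd3 (0.05 and 0.10 without replicate 3 lacking and with SMARTA), Psmd8 (0.03 and 0.14 there, 0.01 with trends removed), Psmc6 (0.02 without both), Psmg4 (0.00 without replicate 3 with SMARTA) and Psmb8 (−0.02 with library totals, −0.05 without replicate 1 with SMARTA, −0.08 without both).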
